A study of Mus musculus with 2 samples.

Results

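CTCF bound inside protein-coding exons was examined in mouse embryonic liver by chromatin immunoprecipitation with sequencing (ChIP-seq), which recovers the DNA that a protein sits on and reports its binding sites as peaks. Peaks were taken from the optimal list, an authors' list thresholded by the irreproducible discovery rate. Not all of its peaks had a counterpart in each library's own list. A coding exon peak was any optimal peak with its summit in coding sequence of a protein-coding gene and more than 1 kb from every annotated transcript start. The rule uses position only. It took 1050 of 50909 peaks, 2.06% of the 50888 peaks on chromosomes 1 to 19, X and Y (95% Wilson interval 1.94% to 2.19%). The other 21 peaks lay on unplaced scaffolds and none of them was in coding sequence. The study has 1 group with 2 libraries: CTCF antibody on pulverised livers of B6NCrl embryos of both sexes at day 14.5, pooled over several dissections into 1 biosample. No genotype, allele or treatment is given in the labels, and there is no second condition. The labels number the libraries biological replicates 1 and 2 but give both the same biosample. What the spread between them includes beyond library making and sequencing cannot be told. It is therefore not read as variation between animals, and the cells in the pool cannot be told apart. Peak lists hold no transcript levels, so the tissue label could not be checked against marker genes.

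CTCF is a DNA-binding protein with a row of zinc fingers that reads a long, strongly directional sequence motif. It stops the cohesin ring as it extrudes chromatin loops, so that its sites mark loop anchors and insulators, and the direction of the motif sets which side a loop is held on. Most of its sites lie in introns, between genes and at promoters. A site in a coding exon is under a second constraint, since the same bases also spell codons and, at the exon's ends, splice signals. Fetal liver at this age is the main blood-forming organ as well as a developing liver.

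Of the 10 coding exon peaks of highest signal, the 9 whose 40-base window is wholly coding are shown first, because they carry the strongest binding. Each is read along the gene's coding strand on build mm10, with the best match to the 14-base core CTCF motif in capitals. A match in the sense direction begins with the motif's CC-rich start, and an antisense match is its reverse complement.

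Zfp219, chr14:52008983-52009022, minus strand, antisense: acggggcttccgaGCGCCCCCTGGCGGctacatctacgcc

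Pgls, chr8:71596102-71596141, plus strand, antisense: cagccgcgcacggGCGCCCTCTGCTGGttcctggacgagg

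A830031A19Rik, chr11:24049381-24049420, minus strand, antisense: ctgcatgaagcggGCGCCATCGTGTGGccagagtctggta

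Gdf15, chr8:70629881-70629920, minus strand, sense: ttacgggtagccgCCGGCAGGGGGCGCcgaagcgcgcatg

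4931428F04Rik, chr8:105283276-105283315, minus strand, sense: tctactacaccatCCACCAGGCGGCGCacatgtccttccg

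1500009C09Rik, chr15:82259694-82259733, plus strand, antisense: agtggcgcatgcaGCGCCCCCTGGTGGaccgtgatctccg

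Fbxl15, chr19:46330137-46330176, plus strand, antisense: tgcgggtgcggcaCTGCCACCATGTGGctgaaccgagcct

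Mroh6, chr15:75884282-75884321, minus strand, sense: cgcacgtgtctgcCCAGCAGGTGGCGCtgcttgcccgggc

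Def6, chr17:28226259-28226298, plus strand, sense: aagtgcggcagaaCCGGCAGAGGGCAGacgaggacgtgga

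Another 3 strong sites are shown because their genes belong to the blood and liver programmes of this organ. Klf1 encodes a master transcription factor of red cells, Spi1 encodes the blood transcription factor PU.1, and Apoa1 encodes the main protein of high-density lipoprotein. The Spi1 stretch is longer so that more of the segment around its match can be seen.

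Klf1, chr8:84903151-84903190, plus strand, antisense: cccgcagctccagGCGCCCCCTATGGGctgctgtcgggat

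Apoa1, chr9:46230011-46230050, plus strand, sense: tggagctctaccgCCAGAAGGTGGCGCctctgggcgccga

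Spi1, chr2:91115119-91115319, plus strand, sense: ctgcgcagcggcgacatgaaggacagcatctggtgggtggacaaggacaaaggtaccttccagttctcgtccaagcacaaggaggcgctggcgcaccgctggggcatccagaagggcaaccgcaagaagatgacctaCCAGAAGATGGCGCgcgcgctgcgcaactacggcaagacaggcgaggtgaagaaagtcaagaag

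Signal below is the authors' value for a peak in the optimal list, on a scale whose unit is not stated. To compare libraries, the signal of the peak within 100 bp in each library's own list was divided by the median signal of that library's 50909 strongest peaks, so that a relative signal of 1 is an ordinary strong peak of that library. The strongest coding exon peak lay in segment 2 of 4 of Zfp219, a zinc finger transcription factor gene, with a signal of 604 and relative signals of 10.4 in replicate 1 and 7.65 in replicate 2. The last coding segment of Pgls, an enzyme gene of the pentose phosphate pathway, held a peak of 598, with relative signals of 10.3 and 7.81. Gdf15, which encodes a secreted stress factor of the TGF-beta family, had 545 and relative signals of 8.27 and 7.93. In the plot of named peaks by replicate, replicate 1 lay above replicate 2 at each of the 10 strongest.

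The remaining peaks among the 10 strongest were in A830031A19Rik (556), 4931428F04Rik (525), 1500009C09Rik (516), Lemd2 (515), Fbxl15 (501), Mroh6 (500.03) and Def6 (499.67). Lemd2 encodes a protein of the inner nuclear membrane, Fbxl15 a subunit of a ubiquitin ligase and Def6 an exchange factor of lymphocytes. Their mean relative signals ran from 7.50 ± 2.05 (SD, n = 2) for Def6 to 8.42 ± 2.25 (SD, n = 2) for A830031A19Rik. The SD includes the offset between the libraries, since replicate 1 was higher at every one of them, and A830031A19Rik was above Def6 in each library, with 10.01 against 8.94 and 6.83 against 6.05. All 10 had a core motif match, 3 of them without a mismatch (Pgls, 1500009C09Rik and Mroh6). The next peaks without a mismatch were in Ppp1r9b, a gene of a scaffold protein for a phosphatase, with a signal of 496, and Epg5, an autophagy gene, with 464. In Ppp1r9b only the summit was in the coding segment, and the match lay wholly beyond the segment's end. Spi1, whose match was not free of mismatches, ranked 15 with a signal of 472 and relative signals of 8.43 and 5.88. Gfap, the gene of the astrocyte intermediate filament, ranked 13 with 488, and Ache, the gene of acetylcholinesterase, ranked 14 with 482. Gfap, Ache and Spi1 were named after their values were seen.

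**Figure D1:**
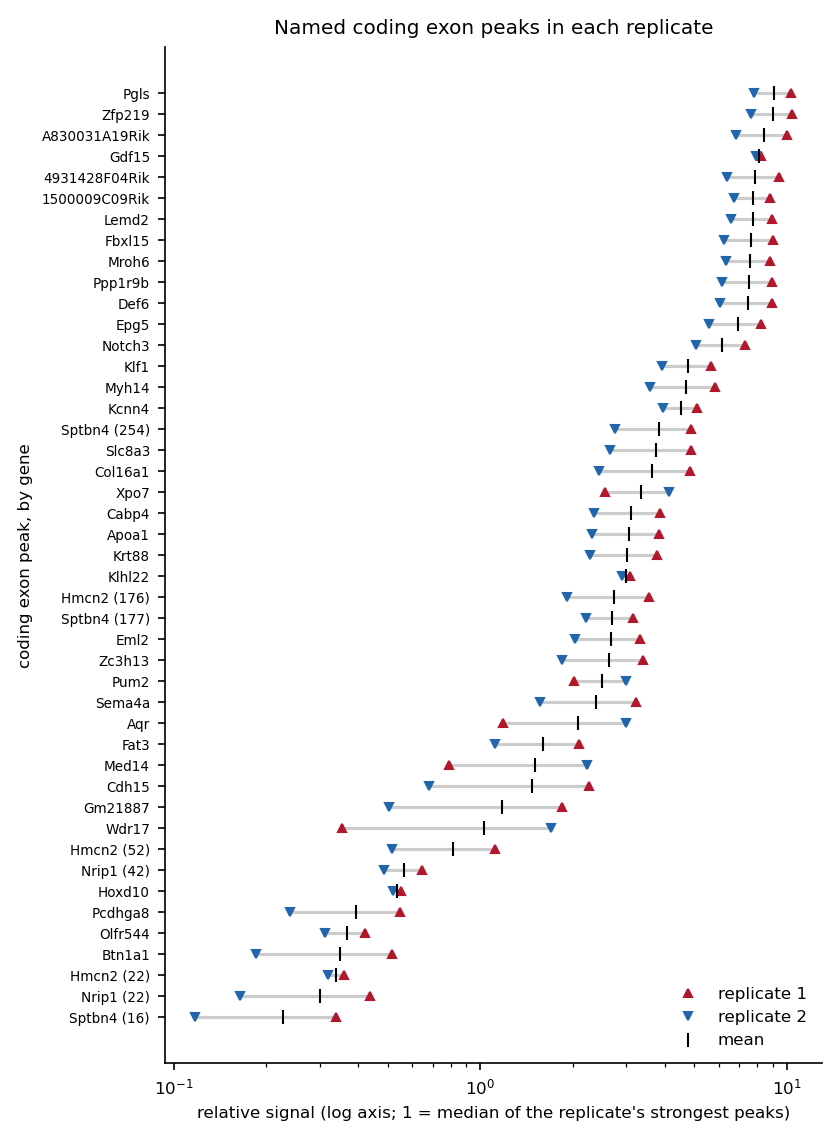
Relative signal (log axis, where 1 is the median of a replicate's 50909 strongest peaks) of named coding exon peaks found in both replicates, one row a peak, with upward triangles for replicate 1, downward triangles for replicate 2 and ticks for the mean. Pgls and Zfp219 are at the top with means of 9.08 and 9.03, and numbers in brackets are optimal list signals that tell peaks of 1 gene apart.

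Coding exons held CTCF peaks more densely than introns. The 25.1 Mb of coding sequence more than 1 kb from starts had 41.9 peaks per Mb, against 30.1 in other exonic sequence, 19.8 in introns and 12.1 between genes. Only sequence within 1 kb of starts was denser, at 70.0 per Mb. The ratio of coding to intronic density was 2.11 in the optimal list, 2.65 in the 50909 strongest peaks of replicate 1 and 1.68 in those of replicate 2 (mean 2.17 ± 0.681, SD, n = 2). Both libraries gave a ratio above 1. Replicate 1 placed 1265 of its strongest peaks in coding exons and replicate 2 placed 866.

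The density of motif matches differed in the same order apart from promoters. Coding sequence held 438 matches per Mb with at most 2 mismatches, introns 222, intergenic sequence 185 and promoter sequence 329. Of 10987 coding matches, 6.51% had an optimal summit within 50 bp (95% Wilson interval 6.06% to 6.98%), against 7.31% of intronic matches. The share was 6.92% in replicate 1 and 5.86% in replicate 2 for coding matches and 6.46% and 7.70% for intronic matches, so the libraries disagreed on which was higher. Base composition moved with these densities: coding sequence was 50.8% GC and intronic sequence 42.1%. Its part in the densities was not tested.

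**Figure D2:**
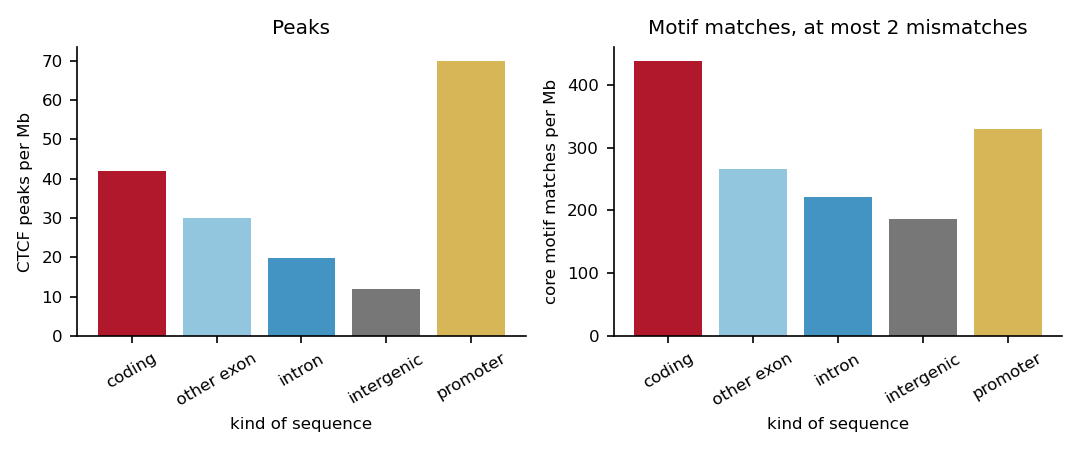
Bars give optimal list CTCF peaks per Mb (left) and core motif matches per Mb (right) in each kind of sequence, both axes from 0. Coding sequence stands at 41.9 peaks and 438 matches per Mb, against 19.8 and 222 in introns.

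In the optimal list, a motif match in a coding exon was occupied about as often as one in an intron with the same number of mismatches. Of 86 coding matches without a mismatch, 69 had a summit within 50 bp, 80.2% (70.6% to 87.3%), with 82.6% in replicate 1 and 79.1% in replicate 2. The intronic share was 83.7% and the intergenic share 71.0%. With 1 mismatch the shares were 26.9% in coding sequence, 28.6% in introns and 19.8% between genes, and with 2 mismatches they were 3.80%, 3.91% and 2.78%. At each step the coding and intronic shares differed by less than the intronic SD between the libraries. Without a mismatch and with 1 they differed by more than the coding SD. The libraries disagreed on which was higher, with coding above intronic in replicate 1 and below it in replicate 2 at each step. The intronic shares were 77.2% and 85.7% without a mismatch, and 25.1% and 29.9% with 1. The intergenic share with 1 mismatch lay below both coding library values, which were 26.2% and 24.7%.

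**Figure D3:**
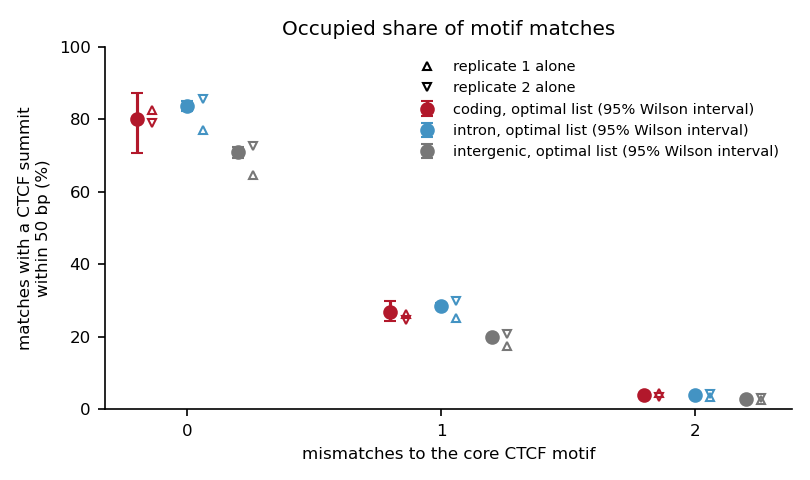
Share of core motif matches with a CTCF summit within 50 bp (vertical axis, percent) by number of mismatches for coding, intronic and intergenic sequence; circles give the optimal list with 95% Wilson intervals and open triangles the 2 replicates alone. Matches without a mismatch reach 80.2% in coding sequence, 83.7% in introns and 71.0% between genes.

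Fewer coding exon peaks than other peaks had a core motif under the summit. A match with at most 2 mismatches, lying wholly within 50 bp of the summit, was found at 666 of 1050 coding exon peaks, 63.4% (60.5% to 66.3%), where the share over all optimal peaks was 70.8%. It was 75.6% for intronic peaks, a difference of -12.2 percentage points (95% interval -15.2 to -9.29), and 49.8% for promoter peaks. The libraries gave 56.4% and 69.1% for coding exon peaks and 69.1% and 77.4% for intronic peaks, so coding lay below intronic in each. Peaks are not replicates of a condition, and these intervals cover counting error only.

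Summit composition and repeats moved with this difference. The median GC content around the summit was 57.7% for coding exon peaks and 48.8% for intronic ones. Below 45% GC the motif shares were 83.3% and 83.0%, and between 45% and 50% they were 68.9% and 77.9%. Between 50% and 55% they were 66.4% and 70.7%, and between 55% and 60% they were 63.1% and 67.4%. At 65% or more they were 58.8% and 59.6%. The gap was therefore smaller within classes of like GC than over all peaks, and was largest at 60% to 65% GC, with 57.1% against 66.7%. Repeat-masked sequence held 34 coding exon summits, 3.24%, and 28.6% of intronic ones. Among summits outside repeats the difference was -10.2 points (-13.3 to -7.23).

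Signal followed the motif closely. Among coding exon peaks the median signal was 240 for the 69 that fitted the motif at every base, then for the 272 with 1 mismatch 101, the 325 with 2 mismatches 54.5, the 256 with 3 mismatches 36.8 and the 128 with more than 3 mismatches 26.1. Intronic peaks gave 190, 93.9, 56.3, 41.2 and 25.6 in the same order. Of the 210 strongest coding exon peaks, 86.2% had a match, and of the 210 weakest 34.8%. Over all classes together the median signal was 59.8 in coding exons (quartiles 28.5 and 145) and 65.1 in introns. The ratio of these medians was 0.919, with 0.796 and 0.916 in the libraries, and it turned to 1.04 when only optimal peaks above the median signal were kept.

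Some strong sites had no match even at 3 mismatches. The strongest was in segment 18 of 28 of Xpo7, a nuclear export receptor gene, with a signal of 225 and relative signals of 2.56 and 4.12. Cabp4, which encodes a calcium-binding protein, had 205 with 3.85 and 2.34, and Klhl22, an adaptor gene of a ubiquitin ligase, had 199 with 3.08 and 2.90. Eml2 (177) and Zc3h13 (175) completed the 5 strongest without a match. Each was above an ordinary strong peak in both libraries.

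The direction of the motif was then read against the coding strand. By the strand of the gene, 375 of 666 matches were antisense, 56.3% (52.5% to 60.0%). For 584 of them the whole motif lay in coding sequence of 1 strand and 1 reading frame, and there 350 were antisense, 59.9%. In the libraries alone the latter share was 59.3% and 57.4%. Motif matches in coding sequence were antisense in 52.7% of 10132 cases whether or not they were occupied. Most of these, 9121, had 2 mismatches, with 52.3% antisense. With 1 mismatch the share was 57.0% of all coding matches and, by the strand of the gene, 57.4% of 272 coding exon peaks. These sets are unlike, since only the first was limited to matches in 1 strand and 1 reading frame. Under that limit, 59.5% of the matches of coding exon peaks with at most 1 mismatch were antisense. Of all antisense coding matches 7.15% were occupied and of all sense ones 5.66%, a difference of 1.50 points (0.540 to 2.45). Each library gave the same order, with 7.56% against 6.18% in replicate 1 and 6.18% against 5.24% in replicate 2. Occupied matches in introns of protein-coding genes were antisense in 50.7% of 14770 cases.

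The reading frame of the motif was uneven, and the sequences of 6 strong peaks, 1 for each frame and direction, show how the motif and the codons lie against each other. In each line the motif is in capitals and the flanking small letters complete the codons, so that reading in steps of 3 from the left gives the codons of the gene.

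Ache, chr5:137290898-137290912, plus strand, sense, first base at codon position 1: CCCCCAGGTGGCGCt

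Gdf15, chr8:70629894-70629908, minus strand, sense, first base at codon position 2: gCCGGCAGGGGGCGC

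4931428F04Rik, chr8:105283287-105283304, minus strand, sense, first base at codon position 3: atCCACCAGGCGGCGCac

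Lemd2, chr17:27189997-27190011, minus strand, antisense, first base at codon position 1: CTGCCCTCTGCAGGc

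Pgls, chr8:71596114-71596128, plus strand, antisense, first base at codon position 2: gGCGCCCTCTGCTGG

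Zfp219, chr14:52008994-52009011, minus strand, antisense, first base at codon position 3: gaGCGCCCCCTGGCGGct

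Of 234 sense matches, 82 began at codon position 1, 31 at position 2 and 121 at position 3, which is 51.7% (45.3% to 58.0%) for the last. The libraries gave 51.4% and 50.2%. All coding sense matches, occupied or not, were spread in a like way, with 31.5% at position 1 and 49.5% at position 3. Of 350 antisense matches, 96, 89 and 165 began at the 3 positions, counted from the left end along the coding strand. The occupied share of sense matches was 6.03% at position 1, 4.07% at position 2 and 6.03% at position 3. It was 6.62%, 8.19% and 7.01% for antisense matches, so the frame of most coding sites was the frame of most coding matches.

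The base at motif position 5, where the consensus has C or T, differed with the frame. When a sense motif begins at codon position 3, its bases 5 to 7 form 1 codon, and T followed by the consensus bases A and G would spell the stop codon TAG. There T was found in 4 of 121 coding exon peaks, 3.31%, and none of these 4 spelled TAG, so another base of the codon departed from the consensus. Matches counted here lie wholly in annotated coding sequence, which holds no stop codon inside its frame. The absence of TAG was thus fixed by the choice of matches. In the other sense frames T was found in 28 of 82 peaks, 34.1%, and in 7 of 31, 22.6%. C took this position in 85 of the 121. Over all coding matches T made up 9.78% of 2373 in this frame, against 21.1% and 20.3% in the other frames.

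An antisense motif has its own such frame. When its left end is at codon position 2, bases 9 to 11 along the coding strand form 1 codon, which reads TAG where the motif has T at position 5 and C at position 4. Over all coding matches in that frame with T at position 5, C stood at position 4 in 86 and G in 362. In the other antisense frames the counts were 164 against 186 and 170 against 200. Among occupied matches they were 7 against 28 in that frame, against 23 to 11 and 22 to 7 in the others. Among occupied matches C outnumbered G in the other antisense frames and G outnumbered C in the frame that would spell a stop. As for sense motifs, TAG itself was excluded by the choice of matches.

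**Figure D4:**
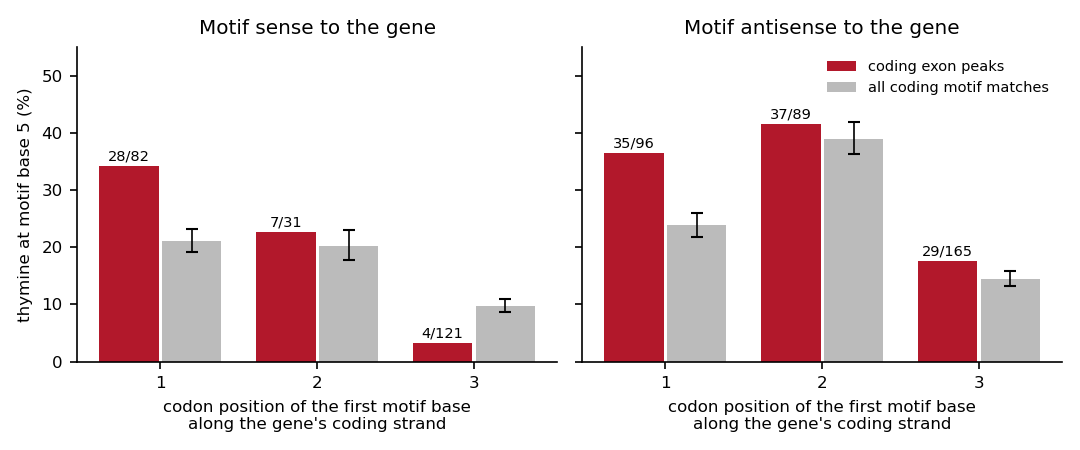
Share of motifs with thymine at position 5 (vertical axis, percent) by codon position of the first motif base, for motifs sense (left) and antisense (right) to the gene; red bars are coding exon peaks with counts above them and grey bars all coding matches with 95% Wilson intervals. Sense motifs beginning at codon position 3 have T in 4 of 121 peaks.

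Single motif positions differed between coding exon peaks and intronic peaks. Position 5 carried C or T in 86.5% of 666 coding matches and in 62.9% of 15198 intronic ones. This difference moved with repeats: A at position 5 was found in 75.1% of matches at repeat-masked intronic summits, in 15.4% at unmasked intronic summits and in 8.55% at unmasked coding ones. Position 3 carried its consensus A in 66.8% of coding and 87.1% of intronic matches, and outside repeats in 66.4% and 83.3%. At 55% GC or more the shares of A at position 3 were 63.1% and 75.05%, and below 55% GC they were 73.1% and 89.2%, so coding lay below intronic in both classes. Coding matches carried T at position 3 in 18.2% and G in 9.76%, against 8.26% and 2.85% in introns.

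At exon ends the motif met splice sites, a pattern looked for after the values had been seen. An intron ends in AG, often CAG, and the sense core motif holds the bases CAG before a G-rich stretch. Of the 666 matched coding exon peaks, 77 had a match that crossed the end of the coding segment or lay outside it. In 61 of the 666 the match crossed a junction between intron and coding segment. It crossed an acceptor, the 3 prime end of an intron, in the sense direction in 44 of them and in the antisense direction in 7. It crossed a donor in 3 and 7. Another set of sequences, 4 acceptor sites and a donor site, shows the position of the junction, with the core motif in capitals.

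March9, chr10:127058356-127058395, minus strand, acceptor, sense: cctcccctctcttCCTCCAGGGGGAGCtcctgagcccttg

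Arntl2, chr6:146825147-146825186, plus strand, acceptor, sense: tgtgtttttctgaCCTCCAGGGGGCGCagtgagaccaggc

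Cog3, chr14:75722172-75722211, minus strand, acceptor, sense: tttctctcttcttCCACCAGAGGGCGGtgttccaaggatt

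Myh14, chr7:44655665-44655704, minus strand, acceptor, sense: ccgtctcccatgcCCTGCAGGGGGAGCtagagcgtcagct

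Dnaic1, chr4:41614322-41614361, plus strand, donor, antisense: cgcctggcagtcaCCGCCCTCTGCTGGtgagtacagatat

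In each of the 4 acceptor sites the first 7 motif bases were intron and the rest exon, so that the AG of the motif was the AG of the splice acceptor. In Dnaic1 the junction fell after 13 bases, and the last G of the match was the first base of the intron. March9, a ubiquitin ligase gene, had a signal of 436 and relative signals of 7.88 and 5.28. Arntl2, a circadian clock gene, had 382 with 6.84 and 4.63. Cog3, a gene of the Golgi tethering complex, had 261 with 3.13 and 4.72, and Myh14, a non-muscle myosin gene, had 313 with 5.83 and 3.57. Dnaic1, a gene of the cilium's dynein motor, had 312 with 5.75 and 3.61.

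Over the genome, 546 sense matches crossed an acceptor of a coding segment more than 1 kb from starts, and 428 of them did so after the 7 bases seen above. An optimal summit lay within 50 bp of 65 of the 546, 11.9% (9.45% to 14.9%), with 10.99% in replicate 1 and 11.5% in replicate 2. Of sense matches wholly inside coding sequence 5.66% were occupied. Antisense matches across acceptors were occupied in 6.82% of 425 cases, sense matches across donors in 2.57% of 272 and antisense matches across donors in 7.89% of 190. Sense matches across acceptors thus had the highest of these shares in each library. The shares were not split by number of mismatches, with which occupancy changed, so the part of match quality was not tested. Some of these summits lay on the intron side and are not coding exon peaks.

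Within the gene, coding exon peaks were spread over all kinds of coding segment. Of 1006 placed in the gene's representative transcript, 657 lay in internal segments, 230 in the last, 60 in the first and 59 in the only coding segment. Per Mb these were 37.2, 51.8, 60.2 and 45.6. Segments of 301 to 1000 bp had 60.3 peaks per Mb and longer ones 38.0. The median segment with a peak was 203 bp long and the median distance from summit to its nearer end was 53 bp, and 604 peaks were wider than the segment they sat on. Many coding exon peaks thus ran past the end of their segment. The remaining 44 peaks lay in coding sequence of another transcript only. With the coding sequence split in 5 equal parts at segment midpoints, density was 36.0, 36.8, 39.6, 46.6 and 45.8 per Mb from start to end.

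The nearest annotated start was a median of 4213 bp away. The 3 coding exon peaks just beyond 1 kb were in Ltb4r2 (1003 bp, signal 23.4), Pum2 (1004 bp, 170) and Btn1a1 (1005 bp, 21.8). The 3 coding summits just inside, and so not counted, were in Tssc4 (1000 bp, 17.6), Htt (996 bp, 165) and Epor (996 bp, 40.7). In all 1076 coding summits lay within 1 kb of a start, with a median signal of 43.5. The rule thus leaves out more coding summits than it takes.

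Coding exon peaks lay closer to other CTCF peaks than intronic peaks did, with a median of 4.97 kb to the nearest against 7.63 kb. This was not particular to them, since the median was 4.44 kb for promoter peaks and 5.56 kb for other exon peaks. Density was highest on chromosome 19, at 61.2 per Mb of coding sequence, on chromosome 11 at 58.6 and on chromosome 15 at 56.5. It was lowest on X, where 11 peaks gave 10.9 per Mb, and Y had none. Intronic density on X was also low, at 8.33 per Mb.

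The peaks fell in 989 of 19214 genes with coding sequence more than 1 kb from starts, 5.15%. One peak was found in 925 genes, 2 in 61 and 3 in Sptbn4, Hmcn2 and Nrip1. Sptbn4 encodes a beta spectrin of the axon's membrane skeleton, and its peaks in segments 16, 13 and 10 of 35 had signals of 254, 177 and 16.5. Hmcn2, a gene of a very large extracellular matrix protein, had 176, 52.3 and 22.1, the weaker pair 200 bp apart in the last segment. Nrip1, a nuclear receptor corepressor gene with 1 coding segment, had 41.7, 22.0 and 14.6. Longer genes had peaks more often, from 1.43% in the fifth of genes with least coding sequence to 10.5% in the fifth with most. Per Mb of coding sequence the order was the reverse, with 66.3 peaks in the fifth with least and 34.3 in the fifth with most. A promoter peak was present in 471 of the 989 genes, 47.6% (44.5% to 50.7%), and in 37.2% of the other 18225.

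Of 37 eligible erythroid genes 4 held a coding exon peak, 10.8% (4.29% to 24.7%), an interval that includes the 5.15% of all eligible genes. Klf1 had 310 in segment 2 of 3, with relative signals of 5.64 and 3.92, and another CTCF peak 1130 bp away. Sox6, a transcription factor of red cell maturation, had 117 with 2.45 and 1.16. Epor, the erythropoietin receptor gene, had 56.1 with 0.852 and 0.732, and a second coding summit 864 bp away was the one that fell just inside the limit. Ermap, a red cell adhesion gene, had 2 weak peaks of 14.4 and 10.1, each present in 1 library only. Klf1 and Sox6 were above an ordinary strong peak in both libraries and Epor was below it in both.

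Of 37 eligible hepatocyte genes 3 held a coding exon peak, 8.11% (2.80% to 21.3%), an interval that includes the 5.15% of all eligible genes. Apoa1 had 201 in its last segment, with relative signals of 3.82 and 2.31. Foxa3, a liver transcription factor gene, had 23.2 with 0.502 and 0.165, and Apoe, an apolipoprotein gene, had 11.2 and was found in replicate 1 only. Neither Foxa3 nor Apoe had a match at 3 mismatches. None of 27 eligible genes of cohesin and its partners held one, where a count of 0 still allows up to 12.5%.

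Keratins and Hox genes had the highest densities of the gene lists, 183 and 181 peaks per Mb of their coding sequence, the latter from 2 peaks. Of 51 eligible keratin genes 8 held a coding exon peak, 15.7% (8.17% to 28.0%). All 8 lay on chromosome 15, in the cluster of type II keratins, which pair with type I keratins to form the filaments of epithelial cells. The strongest was Krt88 with 201 and relative signals of 3.77 and 2.28. Krt75 followed with 93.2 (1.80 and 1.03), Krt81 with 65.7, Krt76 with 46.5, Krt77 with 45.1, Krt82 with 39.2, Krt5 with 31.03 and Krt7 with 15.6. In Krt75, Krt76, Krt77, Krt82 and Krt5 the summit lay in segment 7 of 9, which is 221 bp long in each of them. Krt75 was above an ordinary strong peak in both libraries, and Krt76 and Krt5 were below it in both. The genes of this family resemble each other closely, and the labels and headers do not say how reads that fit several of them were placed.

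The other gene lists are described by the share of their eligible genes with a coding exon peak, beside 5.15% of all. Large cadherins had 4 of 9, led by Fat3 (108), and EGF-repeat and laminin genes 10 of 39, led by Notch3 (418), a receptor gene of vascular smooth muscle. Apart from Fat3 the large cadherin peaks were weak, with signals of 27.0 or less, and 1 of the 5 peaks had a motif match. Spectrins and ankyrins had 2 of 9, with Sptbn4 and Ank2 (114), and myosins 6 of 39, led by Myh14. Potassium channels had 10 of 89, led by Kcnn4 (302, relative signals 5.09 and 3.95), the calcium-activated channel of red cells. Collagens had 5 of 44, led by Col16a1 (238), and plexins and semaphorins 3 of 29, led by Sema4a (159). By density over their coding sequence these lists ran from 28.7 peaks per Mb for collagens to 95.9 for potassium channels, where all coding sequence had 41.9.

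Solute carriers had 21 of 367, led by Slc8a3 (248). Hox genes had 2 of 31, Hoxd10 (38.2) and Hoxb3 (15.6). C2H2 zinc finger genes had 15 of 458, 3.28% (1.99% to 5.33%), although the strongest coding exon peak of all was one of theirs. That list holds only symbols starting with Zfp, Zscan, Zkscan, Zbtb, Zik or Zim. Zinc finger genes of other names, such as Klf1, are left out, so the share does not describe the whole class. Clustered protocadherins, whose promoters are textbook CTCF targets, had 1 of 56 eligible genes, Pcdhga8 (27.2). Ribosomal protein genes had 1 of 55, Rps15 (24.5), olfactory receptors 1 of 274, Olfr544 (21.2), and histone genes 0 of 5, which allows up to 43.4%.

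Coding exon peaks were recovered unevenly in the libraries. Both libraries' full lists held 971 of 1050 within 100 bp, and 763, or 72.7%, were among the 50909 strongest of both, where the share of all optimal peaks was 76.7%. Replicate 1 held 929 among its strongest, 88.5%, and replicate 2 held 815, 77.6%. For intronic peaks the shares were 83.5% and 89.2%, the opposite order. Promoter peaks had 86.5% and 77.55%, the same order as coding exon peaks, and 71.5% of them were among the strongest of both. This order is thus not particular to coding exons. The conservative list, the authors' stricter list, held a summit within 100 bp of 874 coding exon peaks, 83.2%, where the share of all optimal peaks was 86.4%. The optimal list was itself derived from these lists, so this is no independent check.

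Relative signal was higher in replicate 1 for 836 of the 971 peaks, 86.1%, where the share was 63.6% of all optimal peaks and 58.1% of intronic ones, and the median log2 ratio of replicate 1 to replicate 2 was 0.70, against 0.17 for intronic peaks. GC content moved with this. Among coding exon peaks above 55% GC the median was 0.84 and at 55% or less it was 0.33, and among all optimal peaks it was 0.73 and 0.03. The largest ratios among stronger peaks included Gm21887 (1.86 and 0.504) and Cdh15 (2.27 and 0.681), at 58.7% and 59.7% GC. The smallest were in Wdr17 (0.355 and 1.70), Med14 (0.792 and 2.23) and Aqr (1.18 and 2.98), at 37.8% to 42.8% GC. Cdh15 encodes a muscle cadherin, Med14 a subunit of Mediator and Aqr a splicing factor.

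**Figure D5:**
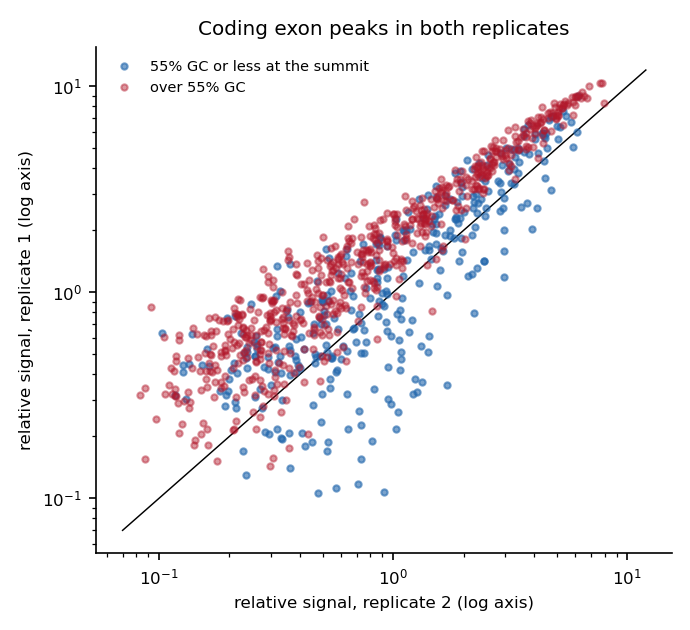
Relative signal of the 971 coding exon peaks found in both libraries, replicate 2 on the horizontal and replicate 1 on the vertical axis (both log), red above 55% GC at the summit and blue at 55% or less; the line marks equal values. Most peaks, 836 of 971, lie above the line.

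Of the 1265 coding exon peaks among the strongest of replicate 1, 478 had no peak within 100 bp among the strongest of replicate 2, though 221 of these had one in its full list. Of the 866 in replicate 2, 93 had none among the strongest of replicate 1, and 67 of these had one in its full list. A motif match was found at 33.5% of the 478 and at 54.8% of the 93. Their median GC content was 58.7% and 47.8%, where all coding exon peaks of the libraries had 58.2% and 57.2%. Peaks shared by both had a match in 70.3% and 70.8%. The peaks of replicate 1 without a counterpart thus had a motif less often than the shared ones and about the GC content of all its coding exon peaks.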

How the data were processed

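The authors deposited narrowPeak lists on mm10, per the labels and the deposited text files: 1 for each of 2 replicates and 1 for both pooled (300000 peaks each), and an optimal and a conservative list thresholded by the irreproducible discovery rate. The caller and aligner are not given in the sources used here. In the deposited files the signal has no stated unit and was compared only within a list or relative to a list's median. The summit is the peak start plus the deposited offset. Read depth is unknown, so precision rests on counts of peaks.

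From these, summits were placed on GENCODE vM21 (all transcripts, chromosomes 1 to 19, X and Y), with any start within 1 kb called promoter, then coding, other exon, intron and intergenic. Sequence came from RefSeq GRCm38, the same build. The 14-base core CTCF motif was searched on both strands with at most 2 mismatches, wholly within 50 bp of the summit. GC content was taken 100 bp to each side of the summit. Each match was given the direction and codon position of the coding strand it lay on. The replicate error is the SD of the same measure on each replicate's 50909 strongest peaks. Shares have Wilson 95% intervals and differences of shares Newcombe intervals, for counting error only. No hypothesis test was run, since there is 1 group. Scripts (Python 3.11.15, numpy 2.4.6, pandas 2.3.3) were tested on simulated sequence.

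Named genes are the 10 peaks of highest signal, the strongest of each of 19 gene lists, genes with 3 or more peaks, the 5 strongest without a match at 3 mismatches and the 5 strongest free of mismatches, the 3 highest and 3 lowest replicate ratios above the median signal, and the 3 peaks on each side of the 1 kb limit. Gfap, Ache, Spi1, Ank2, the other peaks of listed genes and the splice site examples were named after their values were seen. Members, lists and rules were chosen with earlier results of these data known. Alternatives were the conservative list, only the stronger of the optimal peaks (signal above the median), each replicate by itself, start distances of 500 bp and 5 kb, other mismatch limits, motif windows and summit distances, mean signal, basic transcripts only, and dropping peaks that the pooled list ranks lower than 100000. The pooled list served for ranks only. A few genes, 1 gene list and some sequences that these rules take are not reported here.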

Additional observations from a re-analysis of the deposited data

How the results depend on the processing

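Of 82 alternative values for 9 results, 57 moved by less than a set limit, 24 moved further and 1 reversed. The limit was the spread between replicates or, for counts of genes, 1.5 times. Recovery in both replicates has no value for each replicate, so its limit, 2.69 points, was not such a spread. The reversal was the ratio of coding to intronic median signal, 1.04 among optimal peaks above the median signal. With those peaks only, the motif share was 77.8%, the antisense share 57.6%, the share of sense motifs beginning at codon position 3 59.1%, the occupied share of coding matches 3.60%, the genes with a peak 458 and the share among the strongest of both replicates 100%. Starts 5 kb away gave a coding share of 0.902%, an antisense share of 61.4%, a codon position share of 44.1% and 431 genes. At most 1 mismatch gave a motif share of 32.5%, a codon position share of 48.4% and an occupied share of 31.1%. At most 3 gave 87.8%, an antisense share of 57.7% and 53.9%. A 25 bp motif window gave a motif share of 52.9%, an antisense share of 57.7% and an occupied share of 5.29%, and a 100 bp window an occupied share of 7.39%. The conservative list gave a codon position share of 50.9%. Leaving out a replicate gave 57.4% to 59.3% for the antisense share, 50.2% to 51.4% for the codon position share and 0.796 to 0.916 for the signal ratio. The cause was not tested beyond what each setting changes. No paired analysis was possible because there is 1 group. Depth is unknown, and with 2 libraries of 1 biosample nothing here measures variation between animals.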

Other observations

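The conservative list held 997 coding exon peaks, and 123 of them had no optimal summit within 100 bp. Their median signal was 18.9 and 42.3% had a motif match. In the other direction, 176 coding exon peaks of the optimal list had no conservative summit, with a median signal of 18.3 and a match in 38.1%. Of the 1050, 11 ranked beyond 100000 in the pooled list, 1.05%, against 0.918% of all optimal peaks.

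In all 6 coding exon peaks lay in coding sequence of 2 or more genes at once. The antisense share of matched peaks was 50.8% in the fifth of highest signal and 64.4% in the fifth of lowest signal, from 92 of 181 and 47 of 73 peaks.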
